A study of Mus musculus with 2 samples.

Results

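The DNA replication genes described here are 37 genes chosen by symbol, out of 32285 features in the gene tables of 2 single-cell libraries of mouse liver. Of these, 11 act before or at the licensing of replication origins (Orc1, Orc6, Cdc6, Cdt1, Gmnn and Mcm2 to Mcm7). Helicase activation is represented by 4 genes (Mcm10, Cdc45, Gins1 and Gins2), DNA synthesis at the fork by 6 (Pola1, Prim1, Pole, Pold1, Rpa1 and Rpa2) and the sliding clamp with lagging-strand joining by 6 (Pcna, Pclaf, Rfc4, Rfc5, Fen1 and Lig1). A further 5 supply nucleotides (Rrm1, Rrm2, Tyms, Tk1 and Dut), and 5 serve chromatin or repair behind the fork (Chaf1a, Chaf1b, Uhrf1, Slbp and Ung). All 37 were detected in both libraries.

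The labels give n = 1 at each stage, and both livers came from Hhex-knockout hosts given 4N embryonic stem cells (called tetraploid, with 4 chromosome sets) carrying tdTomato, a red fluorescent protein, by injection into the blastocyst. One liver is labelled E18.5, an embryonic stage shortly before birth, and the other P180 (postnatal day 180). Both share the Hhex knockout and the injected cells, so neither is an untreated control, and normal husbandry is the one growth condition given. Cells of 1 library are not replicates of a stage, so no test was made between the libraries or between groups of cells. The gene tables held 0 tdTomato features, so donor and host cells were not told apart.

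Before a cell divides, the origin recognition complex (Orc1 to Orc6) with Cdc6 and Cdt1 loads the Mcm2 to Mcm7 ring onto DNA, and geminin (Gmnn) blocks Cdt1 once replication has begun. Cdc45 and the GINS complex turn the loaded ring into the moving helicase, DNA polymerases copy both strands around the PCNA clamp, and ribonucleotide reductase (Rrm1 with Rrm2) makes the building blocks. Many of these genes are transcribed under E2F factors as cells pass from G1 into S phase. In erythroid precursors, cells divide while they build up haemoglobin and stop dividing before the nucleus is expelled.

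After filtering, 4543 cells labelled E18.5 and 8847 labelled P180 remained, holding medians of 4726 and 5905 UMIs (unique molecular identifiers, each counting 1 captured RNA molecule). The 37 genes held 23419 UMIs in the first library and 232516 in the second. Both went against their stage labels in cell makeup. Clusters led by Igha and Jchain (plasma cells), by Cd79a and Ebf1 (B cells) and by Retnlg and Il1b (mature neutrophils) stood in the library labelled E18.5, where no cluster was named erythroid-like. One cluster there, of 85 kept cells with a median haemoglobin share of 63.4%, was led by haemoglobin genes and Alas2 but held the B cell genes Ebf1, Ighm and Bank1 among its top genes and stayed unnamed under the naming rule. At resolution 2, 24 of the E18.5-labelled cells were named erythroid-like, and without the minimum of genes 4 clusters of 44 to 561 cells were. In the library labelled P180, 6930 of 8847 cells were erythroid-like, next to clusters led by Elane, Prtn3 and Mpo and by Ngp and Camp, genes of neutrophil precursors. Values are therefore given by label, and a difference between labels cannot be told apart from a difference between cell stages, animals or libraries. In the median barcode, 16.7% of UMIs were mitochondrial in the first library and 0.655% in the second, before filtering. The libraries shared 28 cell barcodes.

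Levels are UMIs of a gene summed over the cells of a class, per 1000000 UMIs that are not haemoglobin, with exact Poisson 95% intervals in brackets. Each 3′ library molecule gives 1 UMI whatever the length of its gene, so levels of different genes share 1 scale. Intervals cover counting error only. Class names carry the suffix -like because they rest on marker transcripts, and the replication, mitosis and S phase entry genes were kept out of the clustering.

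Summed over all 37 genes, the level was 819 (809 to 830) in all kept cells labelled E18.5 and 4353 in those labelled P180. With the E18.5 label, the T cell-like class stood highest at 1322 (1280 to 1365), followed by NK cell-like cells at 1191 (1128 to 1257) and dendritic-like cells at 1088 (1060 to 1117). Plasma cell-like cells followed at 950 (908 to 994) and cholangiocyte-like cells at 888 (851 to 927). Plasma cell-like and cholangiocyte-like intervals overlapped, as did those of macrophage-like cells at 651 (611 to 694) and B cell-like cells at 639 (620 to 659), while the first 3 classes were apart on counting error. This order depended on the clustering: with cell cycle genes kept for it, dendritic-like cells were highest at 1501, above NK cell-like cells at 1005 and T cell-like cells at 921. The lowest classes were endothelial-like (552), neutrophil-like (490), mesenchymal-like (314) and monocyte-like cells (290). Single cells weighed on several of these sums. One cell held 22.0% of the replication gene UMIs of the neutrophil-like class, 18.1% of the macrophage-like, 14.97% of the NK cell-like and 11.2% of the plasma cell-like class.

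With the P180 label, erythroid-like cells stood highest among the named classes at 6262 (6223 to 6301), followed by B cell-like cells at 5343 (5249 to 5438) and monocyte-like cells at 3978 (3932 to 4025). Neutrophil-like cells reached 2698 (2675 to 2720), dendritic-like cells 1699 (1638 to 1761), mesenchymal-like cells 1522 and endothelial-like cells 826 (755 to 902). These are pooled UMIs, and single cells gave another order. Their mean level was 3433 in monocyte-like, 2999 in erythroid-like and 2956 in B cell-like cells. The medians were 3108, 832 and 992 in the same classes. The 10% of erythroid-like cells with the most UMIs of these genes held 81.8% of them. The dendritic-like level was 3631 with doublets kept, 3621 without a minimum of genes, 3531 at resolution 0.5, 2636 at a 10% mitochondrial limit and 2617 without one. The mesenchymal-like level was 2974 without a minimum of genes, 2783 with cell cycle genes kept for clustering and 3462 at resolution 0.5. An unnamed cluster of 84 cells led by Npm1, Hspe1, Hspd1 and Car1, with a median of 46604.5 UMIs per cell, exceeded every named class at 7179. A second unnamed cluster, of 59 cells led by Ppia and Npm1, reached 6071.

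Neutrophil-like cells were not uniform in either library. In the library labelled P180, the 140 cells of the Elane, Prtn3 and Mpo cluster had a summed level of 4218 and the 403 cells of an Ngp and Camp cluster 3301. A cluster of 467 cells led by Ngp and the stefin genes Stfa2 and Stfa3 stood at 380, and 57 cells led by Retnlg and Cxcl2 at 370. In the library labelled E18.5, 20 cells led by S100a9, S100a8 and Camp stood at 2001 (1 cell gave 30.8% of their UMIs) and the other 370 at 170. The class value thus averages over clusters that lie far apart.

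**Figure D1:**
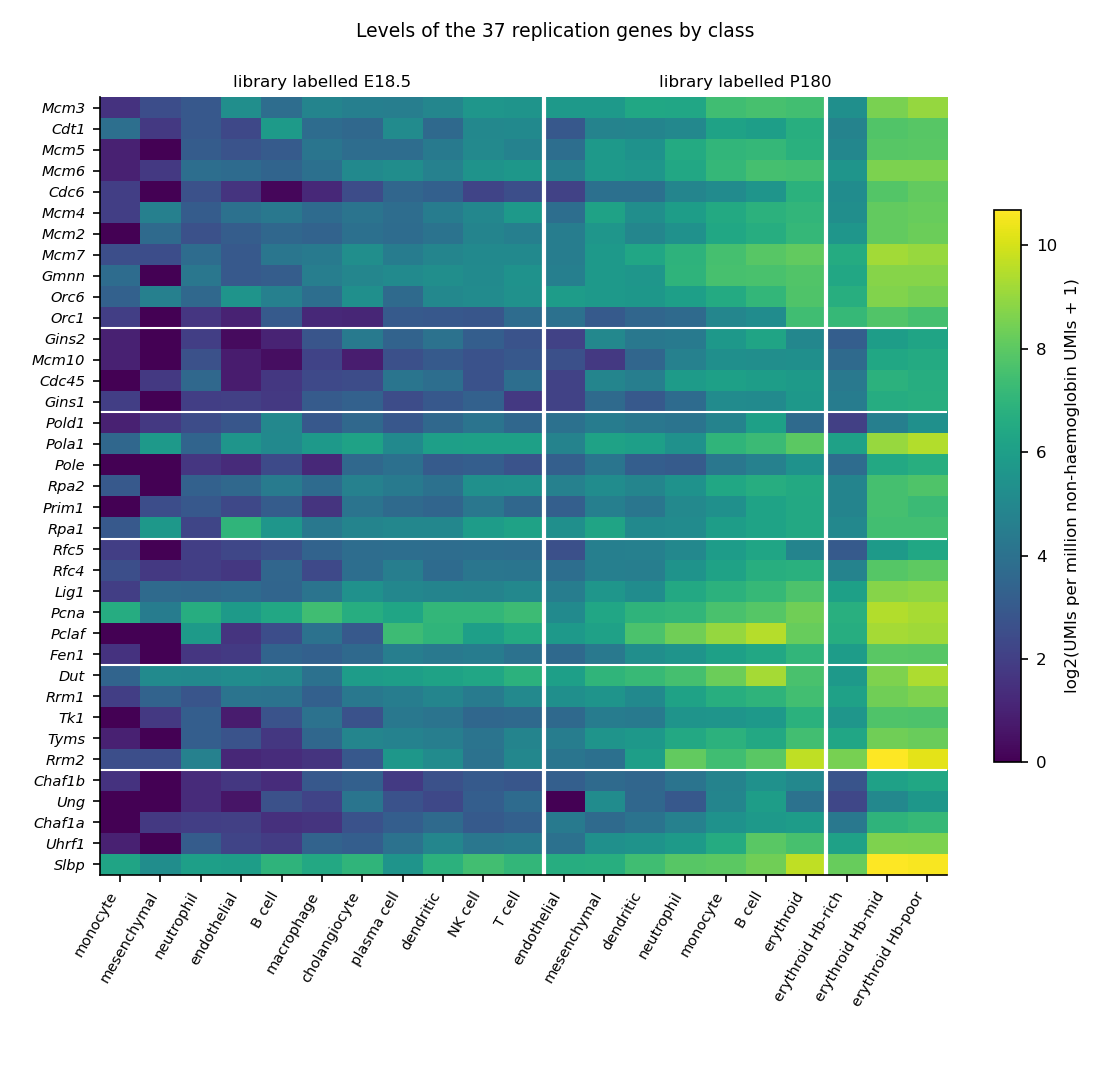
Level of each of the 37 genes (rows, grouped by role with white lines) in every named class (columns), as log2 of UMIs per 1000000 non-haemoglobin UMIs plus 1, with the library labelled E18.5 on the left and that labelled P180 on the right; the last 3 columns split the erythroid-like cells by haemoglobin share (at least 50%, 10 to 50%, under 10%). Classes are sorted by their summed level within each library. Slbp and Rrm2 are brightest in the 2 columns under 50% haemoglobin (Slbp 1649 and 1556, in column order). Orc1 differs least between the 3 columns (144, 221 and 186, in column order).

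Gene by gene, the highest class differed with the label. Of the 37 genes, 9 were highest in plasma cell-like, 8 in cholangiocyte-like, 7 in T cell-like and 5 in NK cell-like cells labelled E18.5, over 11 classes. The rest were highest in dendritic-like (3), B cell-like (2), endothelial-like (2) and macrophage-like cells (1). Some of these peaks were low, such as Cdc6 in plasma cell-like (10.6) and Chaf1b in cholangiocyte-like cells (8.68). Those classes had 110 and 166 cells, and 1 cell held 11.2% and 9.40% of their replication gene UMIs. With cell cycle genes kept for clustering, the plasma cell-like summed level was 271 instead of 950. Under the other label, 24 of 37 were highest in erythroid-like cells, 12 in B cell-like cells and 1 (Cdc45) in monocyte-like cells, over 7 classes.

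Orc1, the largest subunit of the origin recognition complex, stayed at or under 12.7 in all 11 classes labelled E18.5. In the library labelled P180 it reached 171 (165 to 178) in erythroid-like cells, against 35.5 (28.3 to 44.1) in B cell-like cells, 29.1 in monocyte-like cells and 11.9 in neutrophil-like cells. No other class came near the erythroid-like value.

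Rrm2, the S phase subunit of ribonucleotide reductase, ran from 1.27 in endothelial-like to 49.3 in plasma cell-like cells labelled E18.5. Under P180 it ran from 14.2 in mesenchymal-like through 170 in monocyte-like, 248 in B cell-like and 277 in neutrophil-like to 822 (808 to 836) in erythroid-like cells. Slbp, which binds the stem-loop of histone mRNA, spanned less in the library labelled E18.5, from 36.3 in mesenchymal-like to 175 in NK cell-like cells. Under P180, Slbp went from 98.8 in endothelial-like to 810 (796 to 824) in erythroid-like cells.

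Pcna, the sliding clamp, ranged from 21.8 in mesenchymal-like to 171 in macrophage-like cells labelled E18.5, and from 33.5 in endothelial-like to 334 in erythroid-like cells labelled P180. The order differed for Pclaf, a protein that binds the clamp. It was 0 in mesenchymal-like and monocyte-like cells and 160 in plasma cell-like cells labelled E18.5. Among P180-labelled classes Pclaf was highest in B cell-like cells at 714 (680 to 749), above monocyte-like (514), neutrophil-like (330) and erythroid-like cells (292). Dut, the dUTPase, was likewise highest in B cell-like cells labelled P180 at 606, against 198 in erythroid-like cells.

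Some members followed other classes. Rpa1, a subunit of the protein that coats single-stranded DNA, was highest in the endothelial-like class labelled E18.5 at 125 (115 to 137), and lowest in neutrophil-like cells at 3.76. Cdt1, the loading factor, was highest in B cell-like cells of that library at 55.9. Pold1, the catalytic subunit of polymerase delta, was lowest in erythroid-like cells among the P180-labelled classes at 11.8 (10.2 to 13.6) and highest in B cell-like cells at 66.3. Of the other fork genes, Pola1, Prim1, Pole and Rpa1 were highest in erythroid-like cells and Rpa2 in B cell-like cells.

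The erythroid-like cells labelled P180 were then divided by the haemoglobin share of a cell's UMIs. Haemoglobin took under 10% in 170 cells, 10 to 50% in 1717 and at least 50% in 5043, with median shares of 7.33%, 33.9% and 72.7%. These are called haemoglobin-poor, haemoglobin-mid and haemoglobin-rich. Haemoglobin was left out of the denominator, because its rise alone would lower every other share. The erythroid markers other than globins (12 genes, among them Tfrc, Slc4a1 and Alas2) summed to 8270, 17819.5 and 29063 in the 3 groups, with none at 0 in any of them. Median UMIs per cell were 1205.5, 2132 and 5675, and the median mitochondrial share was 5.71%, 1.58% and 0.431%.

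The replication genes held 12728 (12486 to 12974) in haemoglobin-poor cells, 12572 (12477 to 12668) in haemoglobin-mid cells and 2282 (2252 to 2312) in haemoglobin-rich cells. The first pair of intervals overlapped, and the third lay 5.58-fold under the first. A member was counted as lower or higher past a 2-fold ratio with at least 50 UMIs on 1 side. Between haemoglobin-rich and haemoglobin-poor cells, 34 of the 35 members at this minimum were lower and 0 were higher, with a median log2 ratio of -2.67 (6.34-fold lower). Over all features at the minimum, 41.6% were lower. The median log2 ratio was -0.69 over all features at the minimum and -0.92 over genes with 50 UMIs on both sides. Pold1 and Ung missed the minimum, with 33 and 41 UMIs on the haemoglobin-poor side. Without any cell holding a UMI of Cd79a, Ms4a1, S100a8, Ngp, Camp or Ptprc, genes of other blood cells, 17 haemoglobin-poor and 338 haemoglobin-rich cells were left, and 2 of the 3 members still at the minimum were lower.

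**Figure D2:**
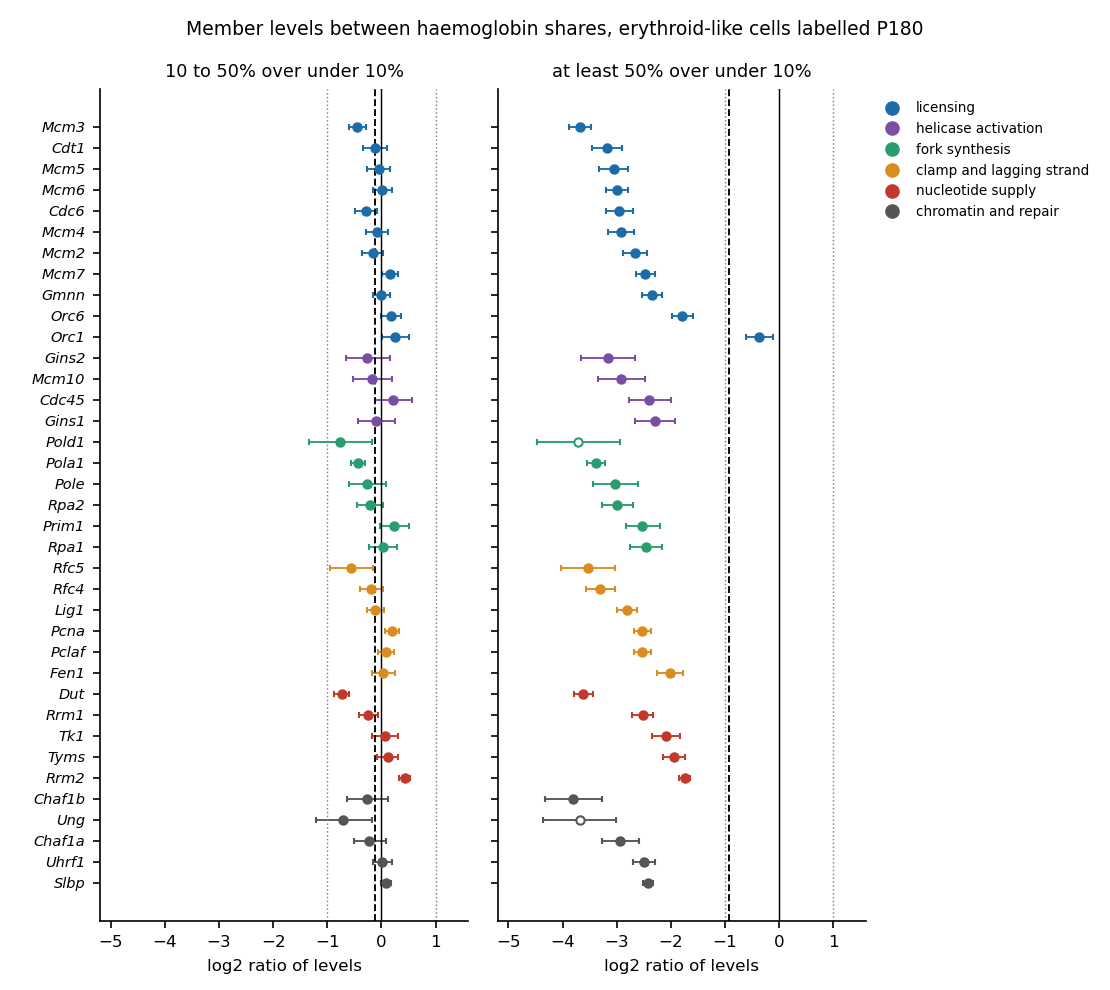
Log2 ratio of levels per gene (points, with 95% counting intervals) in erythroid-like cells labelled P180, for haemoglobin-mid over haemoglobin-poor cells on the left and haemoglobin-rich over haemoglobin-poor cells on the right. Open points are genes with under 50 UMIs on both sides and dotted lines mark 2-fold. The dashed line is the median of genes with 50 UMIs on both sides (-0.11 and -0.92). Points lie around 0 on the left and near -2.67 on the right. The exception is Orc1 at -0.37, whose sign turned under the median of ratios.

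Among the licensing genes, 10 of 11 were lower in haemoglobin-rich cells, with a median log2 ratio of -2.92. Mcm3, a subunit of the helicase ring, went from 504 in haemoglobin-poor through 370 in haemoglobin-mid to 39.4 in haemoglobin-rich cells (log2 ratio of rich over poor -3.68, -3.88 to -3.47). The other ring subunits lay between -3.06 (Mcm5) and -2.47 (Mcm7). Cdt1 stood at -3.18, Cdc6 at -2.95 and geminin at -2.35. Subunits of 1 ring thus had unlike ratios, with an interval for Mcm3 below that of Mcm7 (-2.63 to -2.30).

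The origin recognition subunits stood apart from the loading factors. Orc6 went from 357 through 402 to 103 (-1.79, -1.98 to -1.60). Orc1 had 153, 1174 and 1404 UMIs in the 3 groups, or 186, 221 and 144, and so differed by only 1.29-fold between haemoglobin-rich and haemoglobin-poor cells (-0.37, -0.61 to -0.12). It was the one member at the minimum that did not reach 2-fold. Scaled by the median of ratios over all genes, the sign of the Orc1 ratio turned, so that its direction is not settled. Orc1 took 1.46% of the replication gene UMIs in haemoglobin-poor and 6.29% in haemoglobin-rich cells, while the share of Pcna was 4.86% and 4.69%.

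All 4 helicase activation genes were lower, with ratios between -3.16 (Gins2) and -2.30 (Gins1). Gins1 went from 104 through 97.1 to 21.2. All 5 fork genes at the minimum were lower, led by Pola1, the catalytic subunit of polymerase alpha, which starts each new strand (707, 522 and 67.8, -3.38). Rpa1 at -2.47 and the primase subunit Prim1 at -2.52 had the smallest differences of that role.

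The 6 clamp and lagging-strand genes were lower as well. Pcna went from 619 through 706 to 107 (-2.53) and Pclaf from 571 through 605 to 99.0 (-2.53). The clamp loader subunits Rfc5 and Rfc4 had the lowest ratios of this role at -3.53 and -3.30, and the flap nuclease Fen1 the highest at -2.02.

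The nucleotide supply genes differed among themselves. Dut, which removes dUTP, had 1 of the lowest ratios of all members, going from 656 through 394 to 53.5 (-3.62). Rrm2 went from 1201 through 1615 to 359 (-1.74, -1.85 to -1.64), and Tyms (-1.94) and Tk1 (-2.09), which make thymidine nucleotides, stood close to it. Rrm1, the partner of Rrm2, was at -2.52. Rrm2 alone held 15.7% of the replication gene UMIs in haemoglobin-rich cells, and without it the summed level still lay 5.99-fold lower than in haemoglobin-poor cells.

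In the chromatin and repair group, Chaf1b, a subunit of the histone chaperone CAF-1, had the lowest ratio of all members at the minimum, from 82.5 through 68.6 to 5.93 (-3.80, -4.33 to -3.27), on 68, 365 and 58 UMIs. Its partner Chaf1a was at -2.93, Uhrf1, which reads newly copied methylated DNA, at -2.50 and Slbp at -2.42. Slbp was the most abundant member in haemoglobin-poor and haemoglobin-mid cells, at 1556 and 1649, and stood at 290 in haemoglobin-rich cells, under Rrm2 at 359.

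The promoters of the pair of members with the highest and the pair with the lowest ratios are shown, so that the sequences can be set beside these values. They were read from the RefSeq promoter table (GRCm38.p6), which matched 32 of 37 members (all but Gmnn, Mcm4, Gins1, Gins2 and Pole), and run 5′ to 3′ on the gene's strand from base -250 to base -21 before the annotated start. Capitals mark an E2F-type motif in Orc1, Rrm2 and Chaf1b and the CCAAT box, on either strand, in Mcm3. The CCAAT box was also present in the sequences shown for Orc1 and Rrm2, where it is left in small letters. It was absent from that of Chaf1b. The last 11 bases shown for Orc1 lie inside its GENCODE M21 gene model, which begins upstream of the RefSeq start.
Orc1 (chr4:108579204-108579433, plus strand): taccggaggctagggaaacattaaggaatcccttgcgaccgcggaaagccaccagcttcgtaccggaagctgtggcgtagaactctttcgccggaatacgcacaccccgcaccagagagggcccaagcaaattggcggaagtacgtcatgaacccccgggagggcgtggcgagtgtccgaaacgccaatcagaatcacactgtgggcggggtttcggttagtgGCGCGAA
Rrm2 (chr12:24708004-24708233, plus strand): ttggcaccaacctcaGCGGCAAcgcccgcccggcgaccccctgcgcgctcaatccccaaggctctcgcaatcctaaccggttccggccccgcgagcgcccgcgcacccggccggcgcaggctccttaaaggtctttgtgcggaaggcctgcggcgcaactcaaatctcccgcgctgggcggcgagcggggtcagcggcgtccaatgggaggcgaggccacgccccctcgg
Chaf1b (chr16:93883651-93883880, plus strand): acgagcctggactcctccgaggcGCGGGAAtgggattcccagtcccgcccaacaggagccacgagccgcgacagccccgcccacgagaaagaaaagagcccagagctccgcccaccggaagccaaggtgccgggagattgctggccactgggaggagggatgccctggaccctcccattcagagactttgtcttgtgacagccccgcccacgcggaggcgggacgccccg
Mcm3 (chr1:20820333-20820562, minus strand): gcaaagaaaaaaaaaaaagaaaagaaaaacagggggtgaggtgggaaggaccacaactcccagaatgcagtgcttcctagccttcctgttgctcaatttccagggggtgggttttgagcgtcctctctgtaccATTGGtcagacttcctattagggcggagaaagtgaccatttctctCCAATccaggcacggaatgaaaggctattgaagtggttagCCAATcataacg
The E2F-type motif was searched as TTCCCGC and in the related forms that read TTCGCGC for the next form, then TTGCCGC for another and lastly TTGGCGC. The CCAAT box was searched by its name's letters and the cell cycle homology element as TTTGAA, all on both strands. In the 250 bases before the start, 14 of 32 members (43.8%) held an E2F-type motif, against 9.01% of 27025 genes with such windows (7.89% of 32851 windows of the same length). The CCAAT box was present in 20 of 32 (62.5%), against 37.5% of genes, and the homology element in 3 of 32 (9.38%), against 18.3%. By role, an E2F-type motif was found in 5 of 9 licensing, 3 of 5 fork, 3 of 5 chromatin and repair, 2 of 5 nucleotide supply, 1 of 6 clamp and 0 of 2 helicase activation genes. E2F-type letters stood both in Orc1 (bases -27 to -21) and Rrm2 (from base -235), which had the highest ratios, and in Chaf1b (from base -227), which had the lowest, and the E2F-type letters were not in the Mcm3 window. These 4 genes were picked by their ratios, and whether the motif relates to the ratios was not tested. Matches could overlap, as they did on opposite strands in Mcm6.

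In the GENCODE M21 annotation (mm10), Orc1 is at chr4:108579423-108614833 on the plus strand and Rrm2 at chr12:24708241-24714146 on the plus strand. Chaf1b is at chr16:93883901-93906115 on the plus strand, overlapped on that strand by Gm49617, and Mcm3 at chr1:20802968-20820312 on the minus strand. Of the 37 genes, 9 overlap another gene on their strand and 16 one on the other strand (for Orc1, Gm12743). Pcna and Tyms have named pseudogenes, so their counts are less certain.

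In pooled UMIs, haemoglobin-mid cells lay within 2-fold of haemoglobin-poor cells for each of these genes. Of 37 members, 0 were lower and 0 higher, beside 8.94% of all features lower, and the median log2 ratio was -0.10. Cell by cell the 2 groups lay further apart, with a median cell level of 10098 in haemoglobin-poor and 2383 in haemoglobin-mid cells (mean 9421 and 6904). The 10% of haemoglobin-poor cells with the most UMIs of these genes held 67.4% of all such UMIs in that group. Of the pooled ratios, 15 lay above 0, and Gmnn, Mcm4, Mcm5 and Gins1 changed sign under the median of ratios. The highest were Rrm2 at 0.43 (0.33 to 0.52), Orc1 at 0.25 and Prim1 at 0.23. The lowest were Pold1 (40.0 to 23.5, -0.77), Dut (-0.74, -0.87 to -0.60) and the uracil glycosylase Ung (49.8 to 30.4, -0.71). Of the most abundant member of each role, Mcm7 stood at 0.15, Cdc45 at 0.21, Pola1 at -0.44, Pcna at 0.19 and Slbp at 0.08.

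Haemoglobin-rich cells against haemoglobin-mid cells gave 36 of 37 members lower and 0 higher, with a median log2 ratio of -2.71 (6.54-fold lower), beside 37.4% of all features. The median of all genes was -0.66. Chaf1b (-3.53), Mcm3 (-3.23) and Rfc4 (-3.12) were lowest. Fen1 (-2.05), Orc6 (-1.96) and Orc1 (-0.62, -0.73 to -0.51) were highest, and Orc1 was again the one member within 2-fold, with a sign that turned under the median of ratios. Between these came Cdc45 at -2.60, Mcm7 at -2.62, Pcna at -2.72, Pola1 at -2.94, Rrm2 at -2.17 and Slbp at -2.51.

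In bins of 10% haemoglobin, the summed level of pooled UMIs was 12728, 12054, 13318 and 13812 in the first 4 bins, 11133 at 40 to 50%, 6457 at 50 to 60%, 1883 at 60 to 70%, 734 at 70 to 80% and 570 at 80 to 90% (954 cells). A last bin above 90% had 9 cells and 2 UMIs of these genes. The pooled level thus stayed within 12054 and 13812 up to 40% haemoglobin and was lower in each bin after that. The level of the single cells did not: its mean was 9421, 5937, 6076 and 7888 in the first 4 bins and its median 10098, 2211, 1859 and 2849. The mitochondrial share and UMIs per cell moved along the same axis, from 5.71% and 1205.5 to 0.279% and 6594.5, and their part in the result was not tested.

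**Figure D3:**
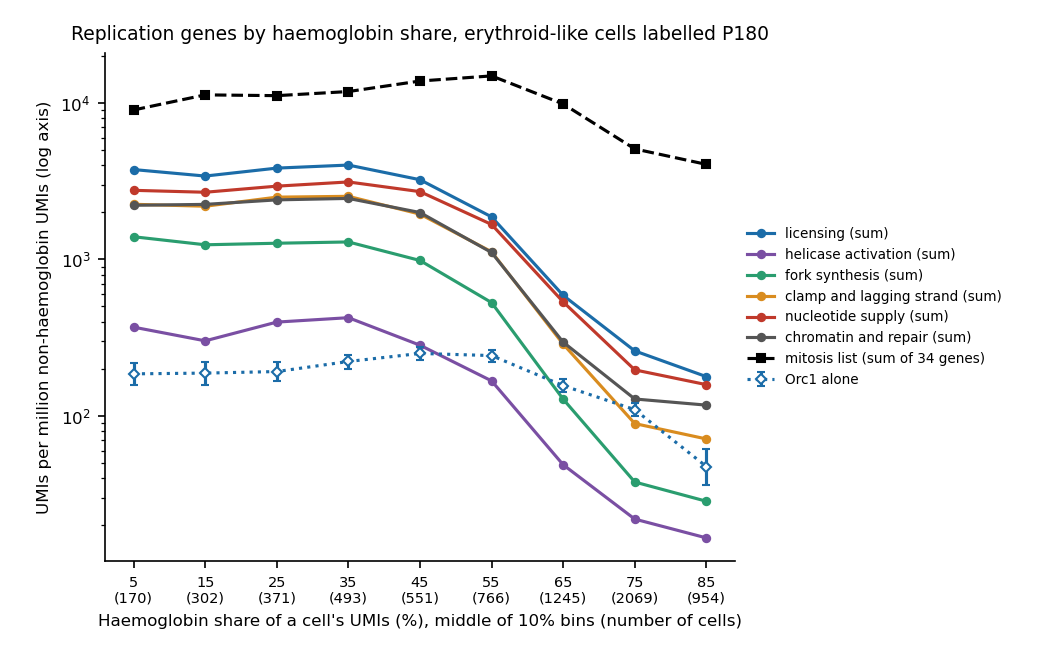
Summed level (pooled UMIs) of each role's genes (solid lines), of 34 mitosis genes (dashed) and of Orc1 alone (dotted, with 95% counting intervals) against the haemoglobin share of erythroid-like cells labelled P180, in 10% bins with the number of cells below each, on a log axis. The pooled levels of the 6 roles drop after 30 to 40%, while the mitosis genes peak at 50 to 60% (14847) and Orc1 at 40 to 50% (251).

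Most members peaked early on this axis. Of 37, 12 were highest under 10% haemoglobin, 1 (Ung) at 10 to 20%, 6 at 20 to 30%, 17 at 30 to 40% and 1 (Orc1) at 40 to 50%. The first bin under 50% of the peak level was 50 to 60% for 27 members. It came earlier for Ung (30 to 40%) and for Mcm10, Pold1 and Dut (40 to 50%). Orc6, Fen1, Rrm2, Tyms and Tk1 followed at 60 to 70%, and Orc1 at 70 to 80%.

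Orc1 stood at 186, 188, 192, 223, 251, 243, 156, 110 and 47.5 over the 9 bins from under 10% to 90%. At 70 to 80% haemoglobin it kept 43.7% of its peak, where the other 36 members kept between 1.33% (Chaf1b) and 8.64% (Orc6). Rrm2 went from 1201 to 1773 at 30 to 40% and then to 995, 313, 118 and 76.8 in the last 4 bins. Slbp followed a like course, from 1783 at 30 to 40% to 834, 219, 95.4 and 89.5. Mcm3 was highest in the first bin at 504 and reached 6.85 at 70 to 80%, on 25 UMIs.

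The sums could reflect fewer cells with these transcripts or fewer transcripts in each cell, so cells were also thinned to 1000 non-haemoglobin UMIs each, leaving out shallower cells. Of the haemoglobin-poor cells 93 of 170 were deep enough, and 93.5% of them (exact 86.5 to 97.6%) had at least 1 UMI of the 37 genes, with a median of 13. In haemoglobin-mid cells (1068 of 1717) the share was 86.8% (84.6 to 88.8%) with a median of 10, and in haemoglobin-rich cells (4247 of 5043) it was 52.2% (50.7 to 53.7%) with a median of 1. Without thinning, 11.2%, 27.7% and 37.4% of cells had none. Neutrophil-like clusters with low levels of these genes are given beside these shares. In the 57 cells labelled P180 that were led by Retnlg and Cxcl2, with a summed mitosis gene level of 314, the thinned share was 36.8% (24.4 to 50.7%). In 369 of the 370 cells labelled E18.5 that were led by S100a9, S100a8 and Retnlg, at a mitosis level of 276, it was 13.6% (10.2 to 17.5%). In 465 cells of the Ngp, Stfa2 and Stfa3 cluster, at a mitosis level of 907, it was 18.7% (15.3 to 22.6%).

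Shares with at least 5 UMIs of these genes differed more, at 84.9%, 62.3% and 7.06% from haemoglobin-poor to haemoglobin-rich cells. Almost all such cells also had at least 2 UMIs of the mitosis genes (82.8%, 62.2% and 6.90% of cells), and cells with 5 or more and no mitosis UMI were 0 of 93 (exact upper bound 3.89%), 0.0936% and 0.0706%. Cells with no UMI of the 37 genes but at least 2 of mitosis were 6.45%, 9.27% and 35.5%. The 2 states have unlike limits, and in haemoglobin-rich cells the mitosis genes had the higher summed level (8400 against 2282). Their shares therefore cannot be ranked against each other. With cells thinned to 500 UMIs the shares with at least 1 were 84.0%, 65.6% and 34.03%.

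Single genes followed. At 1000 UMIs, Rrm2 was found in 65.6%, 54.6% and 14.1% of haemoglobin-poor, -mid and -rich cells, Slbp in 54.8%, 55.7% and 12.3%, and Pcna in 51.6%, 37.4% and 5.42%. For Orc1 the shares were 16.1% (9.32 to 25.2%), 19.7% (17.3 to 22.2%) and 9.58% (8.71 to 10.5%), with 0.758% in all neutrophil-like cells labelled P180, where Rrm2 was found in 13.7% and Slbp in 16.2%. Orc1 was therefore detected in more haemoglobin-rich cells than Pcna, although in fewer haemoglobin-poor cells.

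Markers of most other cell types were low in these groups, and those of neutrophils were not. The 14 B cell markers summed to 12.1, 14.8 and 20.7, the 12 monocyte markers to 19.4, 35.5 and 61.6 and the 14 T cell markers to 1.21, 0.752 and 2.97. Neutrophil markers (15 genes, led by S100a9) summed to 1028, 1511 and 2777, highest where the replication genes were lowest. Reln, listed as a mesenchymal marker, stood at 131, 379 and 763, with the other mesenchymal markers at 1.21, 2.07 and 3.68 in sum. Dendritic markers, mostly Cst3, summed to 77.7, 60.5 and 58.9, plasma cell markers to 31.5, 28.0 and 32.4 and megakaryocyte markers to 10.9, 26.3 and 32.3. The endothelial, hepatocyte, cholangiocyte, progenitor, macrophage, NK cell, mast cell and plasmacytoid dendritic lists each summed to between 0 (all 11 cholangiocyte markers in haemoglobin-poor cells) and 19.4. Their part in the result was not tested.

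Other genes of the pathway were read from lists that share no member with the 37. Of 50 other replication genes, 44 reached the minimum between haemoglobin-rich and haemoglobin-poor cells. Of these, 39 were lower and 0 higher, with a median log2 ratio of -2.50, beside 41.6% of all features lower. Hells, a chromatin remodeller (-4.16), and Mms22l, which guards stalled forks (-3.66), were lowest, and Orc4 (-0.58) and Rnaseh2c (-0.43) highest. Against haemoglobin-mid cells, 44 of 50 were lower, beside 37.4% of all features, from Hells (-3.60) and Exo1 (-3.51) to Rrm2b (-0.41) and Orc4 (-0.05). Between haemoglobin-mid and haemoglobin-poor cells only Pold2 (-1.21) and Dctpp1 (-1.02) were lower, beside 8.94% of all features, with Dck (0.42) and Asf1b (0.69) at the other end.

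The mitosis genes did not share this course. Of 34, 10 were lower and 2 higher in haemoglobin-rich than in haemoglobin-poor cells, with a median log2 ratio of -0.57. Their summed level was 8996 in haemoglobin-poor and 8400 in haemoglobin-rich cells. These pooled values average over a rise and a fall. In 10% bins the sum peaked at 14847 at 50 to 60% haemoglobin. It was 9826 at 60 to 70%, 5074 at 70 to 80% and 4041 at 80 to 90%. Ttk (-2.16) and Bub1 (-1.77), kinases of the spindle checkpoint, were lowest. Pttg1, the securin (72.8 to 167, 1.199), and Ube2c, the ubiquitin-conjugating enzyme of mitotic exit (334 to 1865, 2.48), were highest. Without Ube2c, left out after its value was seen, the sum was 1.33-fold lower. Haemoglobin-mid cells had 2 mitosis genes higher than haemoglobin-poor cells, Cdca3 (1.10) and Ube2c (1.47), while Ttk (-0.45) and Pttg1 (-0.33) were lowest. Against haemoglobin-mid cells, 17 were lower in haemoglobin-rich cells, led by Top2a (-1.76) and Bub1 (-1.74), and Ube2c (1.01) and Pttg1 (1.53) were higher. Over all features at the minimum, 2769 of 6662 were lower and 1166 higher in haemoglobin-rich than in haemoglobin-poor cells. For haemoglobin-mid against haemoglobin-poor cells these counts were 588 and 580 of 6575. For haemoglobin-rich against haemoglobin-mid cells they were 2692 and 568 of 7199.

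Among 26 regulators of S phase entry, 22 reached the minimum between haemoglobin-rich and haemoglobin-poor cells, of which 12 were lower and 3 higher (median -1.81). Beside these stood 2769 of 6662 features lower and 1166 higher. Cdk4, the G1 kinase (204 to 4.91, -5.38), and E2f3 (-3.86) were lowest. The kinase inhibitors Cdkn2d (82.5 to 330, 2.001) and Cdkn1b (67.9 to 379, 2.48) were highest, and the third was E2f2 (420 to 1631, 1.96), named here after its value was seen. Cdk4 was already lower in haemoglobin-mid cells (-2.41), where Cdkn1a (1.67) and Cdkn2d (1.80) were highest and E2f6 stood at -0.93. That comparison had 1 lower and 3 higher of 21, beside 588 lower and 580 higher of 6575 features. Against haemoglobin-mid cells, 16 of 23 were lower in haemoglobin-rich cells, from E2f3 (-3.11) and Rbl1 (-3.10), and 1 was higher, Cdkn1b (1.55), followed by Cdkn1c (0.79). Of 7199 features, 2692 were lower and 568 higher there.

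Classes found in both libraries were compared next, as the stage labels imply. In B cell-like, dendritic-like and endothelial-like cells fewer UMIs were summed for the P180 label. Any gene with 50 UMIs there and under 50 in the other library therefore had to pass 2-fold, and how many calls this fixed was not counted. In monocyte-like and neutrophil-like cells more UMIs were summed for the P180 label. Most members reached the minimum only there, beside 293 and 651 E18.5-labelled UMIs for all members. Different clusters hold each class in each library, and the erythroid-like class had no partner in the library labelled E18.5.

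In B cell-like cells (1311 labelled E18.5, 201 labelled P180), 35 of 37 members were higher with the P180 label and 0 lower, with a median log2 ratio of 3.79, beside 24.1% of all features and a median of all genes of 0.33. Medians over single cells lay closer together than the pooled levels. The median cell stood at 567 in the first library and 992 in the second, beside pooled levels of 639 and 5343. The 10% of P180-labelled cells with the most UMIs of these genes held 57.6% of them. When each cell was weighted equally, 32 of 37 members were higher and 0 lower, with a median of 2.68. The P180-labelled cells came from 1 cluster with Vpreb3, a gene of B cell precursors, among its leading genes. Cdc6 went from 1 UMI to 109, or 0.153 to 47.2 (8.27, 5.77 to 13.59). Rrm2 went from 1.53 to 248 (7.34, 6.45 to 8.41) and Pclaf from 4.73 to 714 (7.24, 6.73 to 7.80). The GINS subunit Gins2 stood at 6.12, Dut at 4.27, Mcm7 at 3.80, Pola1 at 2.22 and Slbp at 1.44. The smallest ratios belonged to Cdt1 (55.9 to 62.4, 0.16, -0.13 to 0.44), Rpa1 (0.59) and Pold1 (1.10), and the sign for Cdt1 turned under the median of ratios. By role, the medians ran from 2.24 in fork synthesis to 5.43 in helicase activation.

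Neutrophil-like cells (390 and 1067) gave 36 of 37 higher and 0 lower, with a median of 2.63, beside 36.1% of all features and a median of all genes of -0.66. The median ratio of the members ran from 1.68 at a 10% mitochondrial limit to 4.19 with each cell weighted equally. The E18.5-labelled class level of 490 was 885 at that limit and 325 without a minimum of genes. Fen1 (4.31, on 3 E18.5-labelled UMIs), Rfc4 (3.86) and Mcm5 (3.59) had the highest ratios. Rrm2 went from 24.8 to 277 (3.48), Pclaf from 56.4 to 330 (2.55) and Slbp from 64.7 to 243 (1.91). Gmnn stood at 2.78, Cdc45 at 2.35 and Rpa2 at 2.26. Pcna was the exception within 2-fold, at 99.3 and 129 (0.38, 0.12 to 0.64), followed by Pole (1.71) and Pold1 (1.86). The clusters of early granule genes described above make up a larger part of the class with the P180 label.

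In monocyte-like cells (118 and 260), all 37 were higher, with a median of 4.33, beside 33% of all features and a median of all genes of -0.12. Of these, 8 had no E18.5-labelled UMI, so their ratios are lower bounds against 3 counts over the class. Pclaf had 0 against 3639 UMIs, or at least 173-fold higher at 514, and Cdc45 0 against 471 (at least 22.4-fold). Mcm6 (1 against 982 UMIs, 7.13, 4.65 to 12.44) and Mcm5 (7.04) followed. Dut stood at 4.98, Gmnn at 3.89 and Pola1 at 3.53. The smallest ratios were those of Pcna (96.9 to 198, 1.04, 0.74 to 1.35), Slbp (74.1 to 253, 1.77) and Cdt1 (2.33).

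Dendritic-like cells (386 and 75) differed less. Of 30 members at the minimum, 7 were higher and 0 lower, with a median of 0.74, beside 2.62% of all features and a median of all genes of 0.14. These were Mcm7 (28.0 to 79.8, 1.51), Mcm3 (1.49), Cdt1 (1.23), Tyms (1.14), Mcm5 (1.09), Dut (1.04) and Fen1 (1.01), 4 of them licensing genes. Pcna (133 to 122, -0.13, -0.35 to 0.10), Pola1 (0.00, with a sign that turned under each other scaling) and Rpa1 (0.14, below 0 under the median of ratios) had the lowest ratios. Pclaf stood at 0.67, Slbp at 0.52 and Gins2 at 0.27. The count moved between 1 and 34 over the alternatives tried.

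In endothelial-like cells (1021 and 110), 28 of 37 members missed the minimum. Of the other 9, 1 was higher and 1 lower, with a median of 0.38, beside 5.72% of all features higher. Rrm1 went from 16.2 to 38.5 (64 and 23 UMIs, 1.25, 0.49 to 1.96), and with the cells richest in replication gene UMIs left out 0 members were higher. Rpa1 went the other way, from 125 to 38.5 (495 and 23 UMIs, -1.70, -2.37 to -1.10). Pola1 (-0.79), Pcna (-0.73), Slbp (0.71), Dut (0.88) and Orc6 (0.38) all stayed within 2-fold, and Gins1 (0.14) was under the minimum.

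**Figure D4:**
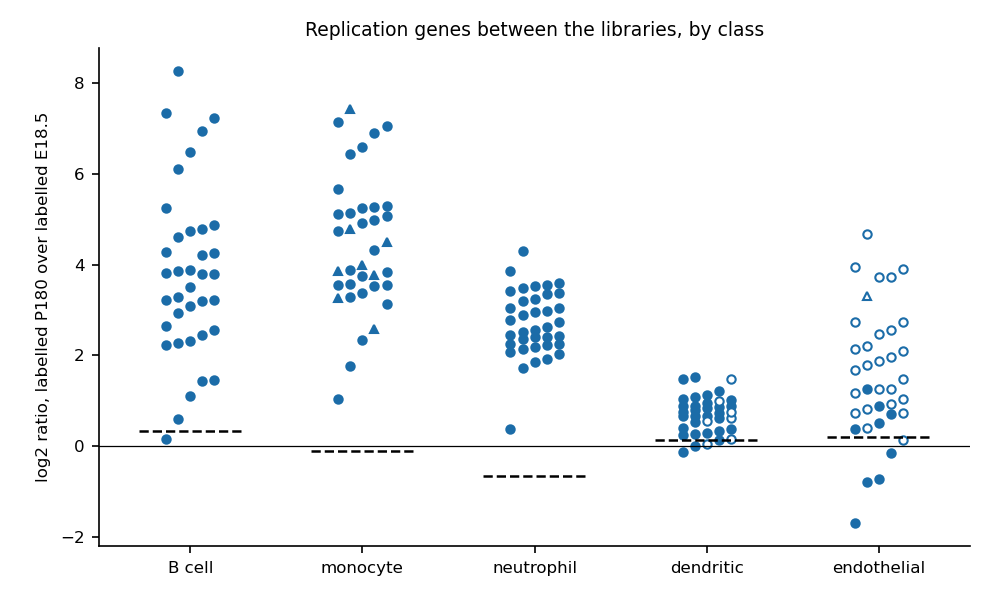
Log2 ratio of levels with the P180 label over the E18.5 label for each of the 37 genes (points) in the 5 classes present in both libraries. Triangles are lower bounds for genes with no E18.5-labelled UMI, and open symbols are genes with under 50 UMIs on both sides. Dashed bars are the median of genes with 50 UMIs on both sides. Most B cell-, monocyte- and neutrophil-like points lie far above their bars, dendritic-like points slightly above.

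Mitosis genes were higher with the P180 label in 33 of 33 at the minimum in B cell-like, 32 of 34 in neutrophil-like, 34 of 34 in monocyte-like, 2 of 31 in dendritic-like and 7 of 8 in endothelial-like cells. In endothelial-like cells the count of mitosis genes was led by Mki67 (4.86) and Birc5 (4.60). There, 1 cell gave 15.6% of the P180-labelled replication gene UMIs. Other replication genes were higher in 36 of 45, 41 of 48, 41 of 48, 4 of 38 and 4 of 27, in the same order of classes. S phase entry regulators were higher in 16 of 22, 17 of 24, 18 of 25, 0 of 20 and 3 of 16. Of all features, 24.1%, 36.1%, 33%, 2.62% and 5.72% were higher in these classes. Lower with the P180 label were 0 mitosis genes in each of the 5 classes. Other replication genes were lower in 1, 2, 1, 0 and 0 cases and the regulators in 1, 4, 1, 3 and 0, in that order. Of all features, 1483 of 8669, 1700 of 9603, 739 of 9336, 698 of 8215 and 771 of 8246 were lower. The extremes in B cell-like cells were Samhd1 (-1.59) and Clspn (5.71) among other replication genes, Pttg1 (1.23) and Ube2c (6.63) among mitosis genes, and Rbl2 (-1.05) and Ccna2 (7.42) among regulators. In neutrophil-like cells they were Kif23 (-0.71) and Bub1 (on 1 E18.5-labelled UMI, 4.999) among mitosis genes, and Cdkn1b (-2.27) and Cdc25a (4.15) among regulators. In dendritic-like cells they were Rpa3 (-0.53) and Timeless (1.58), Ect2 (-0.38) and Cdca8 (1.41), and Ccnd2 (-1.91) and Cdk4 (0.97). Samhd1, an enzyme that degrades dNTPs, was lower with the P180 label in B cell-like (-1.59), neutrophil-like (-2.11) and monocyte-like cells (-1.62), against the course of most of its list.

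Thinned to 1000 UMIs, the shares of cells with at least 1 UMI of the 37 genes put monocyte-like cells first. With the P180 label they were 81.9% in monocyte-like, 68.2% in B cell-like, 56.0% in dendritic-like, 52.7% in neutrophil-like and 32.4% in endothelial-like cells. Under E18.5 they were 18.6%, 44.9%, 37.4%, 16.2% and 37.3% in the same classes, and 61.2% and 52.7% in NK cell-like and T cell-like cells. Exact intervals over cells were 23.7 to 42.1% (P180) and 34.3 to 40.4% (E18.5) in endothelial-like cells. In monocyte-like cells they were 76.7 to 86.4% and 12.1 to 26.9%. With 1 library per label they do not measure the spread between livers, so no difference between labels is judged from them.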

How the data were processed

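Single-cell 3′ v3 libraries of 2 livers were sequenced on a NovaSeq6000, per the labels. The deposited matrices hold whole UMI counts for each gene in each barcode, which the file headers credit to Cell Ranger 7.1.0. The submitters' processing notes also name fastp, Trimmomatic, Seurat, edgeR and mm10 without their role. The labels and headers do not give the strand setting of the counting.

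Barcodes with at least 200 genes and 500 UMIs and under 25% mitochondrial UMIs were kept. The barcodes with the highest Scrublet doublet scores were left out, at 0.8% per 1000 barcodes (178 and 735), because the score's own threshold marked 79 and 0. Each library was clustered alone with scanpy 1.11.5 and leidenalg 0.10.2 on 2000 variable genes, 30 principal components, 15 neighbours and resolution 1, with the replication, mitosis and S phase entry lists left out. A cluster was named from 17 marker sets when at least 3 markers of 1 set, more than of any other, stood among its top 50 genes. One rule was set after the clusters were seen: a cluster stayed unnamed if another class had at least 2 more markers among its 5 leading genes.

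Ratios carry exact conditional 95% intervals of 2 Poisson counts (scipy 1.17.1). The calculation was tested on simulated data. A member counted as higher or lower past 2-fold with at least 50 UMIs on 1 side, and a side at 0 was set to 3 counts over the class. In each comparison the member with the most UMIs per role and the 3 highest and 3 lowest ratios are named, with the 2 highest and 2 lowest of other lists for haemoglobin and the extremes between libraries in B cell-, neutrophil- and dendritic-like cells, of which 1 is not reported here. Members and lists were chosen with earlier results of these data known. With 1 library per stage, no p-value is given.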

Additional observations from a re-analysis of the deposited data

Results flagged for a closer look

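Rpa1 in endothelial-like cells had a log2 ratio of -1.70 for the P180 over the E18.5 label, lower than in the other library, whereas it was at least 2-fold higher in 2 other classes. The difference between classes was not tested. The P180-labelled side rests on 23 UMIs.

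Barcodes labelled E18.5 with at least 50% haemoglobin and under 200 genes were kept out of every comparison that used the minimum of genes. In these 1352 barcodes the 37 genes held 60 UMIs, a level of 99.3 (75.8 to 128), above the limit that a count of 0 allows. The unnamed E18.5-labelled cluster of 85 cells that passed the filter on genes, with a median haemoglobin share of 63.4%, stood at 599 (491 to 725). The haemoglobin-rich cells labelled P180 stood at 2282.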

How the results depend on the processing

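No paired analysis was possible because each stage has 1 library and the counts come from no test. Counting haemoglobin in the denominator moved the median log2 ratio of all genes between haemoglobin-rich and haemoglobin-poor cells from -0.92 to -2.65. That member count stayed within 1.5 times under 17 of 19 alternatives, against haemoglobin-mid cells under 18 of 19, and between libraries under 16 of 16 in neutrophil-like, 9 of 9 in monocyte-like and 15 of 16 in B cell-like cells. The causes of the exceptions were not tested.

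Haemoglobin-rich against haemoglobin-poor gave 17 members lower over all cells of the library and 2 without cells holding a UMI of another class. The latter setting gave 15 against haemoglobin-mid cells, of 16 at the minimum. Haemoglobin-mid against haemoglobin-poor gave 4 with all UMIs, 3 at 1.5-fold, 4 with limits of 5% and 60%, 4 without cells holding another class's UMI and 3 with cells weighted equally. Its median turned above 0 under the median of ratios (0 lower), resolution 2 (1 lower) and all cells (0 lower, 29 higher).

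In endothelial-like cells the count of higher members was 9 at a minimum of 20 UMIs, 3 at 1.5-fold, 2 with doublets kept, 0 at a 10% mitochondrial limit, 8 with none and 0 without the cell richest in these UMIs. At a minimum of 200 it was 0 and the median turned to -0.73. B cell-like cells gave 21 at that minimum. Dendritic-like cells gave 3 under the median of ratios, 1 at 200 UMIs, 20 at 1.5-fold, 32 with doublets kept, 27 at the 10% and 28 without a mitochondrial limit, 33 without a gene minimum, 1 with cell cycle genes in the clustering, 34 at resolution 0.5 and 14 with equal weights. In the 6 settings on doublets, mitochondria, gene minimum, cell cycle genes and resolution 0.5, no P180-labelled cluster was monocyte-like, and that comparison could not be run.

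The erythroid-like level of 6262 was 2268 with all UMIs, 6385 without mitochondrial UMIs, 6149 with doublets kept, 6313 at the 10% limit, 6314 without a gene minimum and 5973 at resolution 2. With cell cycle genes in the clustering, the plasma cell-like level labelled E18.5 was 271, the T cell-like level 921, the NK cell-like 1005 and the dendritic-like 1501. Equal cell weights, the left-out cell and shared barcodes were added after seeing the data. Counts under 50 UMIs leave single genes of small classes undecided.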
